A study of Rattus norvegicus with 8 samples.

Results

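The α subunit genes of the GABA-A receptor that were examined are Gabra2, Gabra3, Gabra4, Gabra5 and Gabra6. They were found as the non-control spots of the array that carry these gene names, which gave 5 spots, 1 for each gene, among 43379 non-control spots with 35250 gene names. All 5 genes were among the 20825 genes quantified in all 8 rats. RNA came from the dentate gyrus (DG) of adult female Sprague-Dawley rats of 150 to 200 g, all of them ovariectomized a week before hormone treatment, and all subjected to status epilepticus (SE) with kainic acid. The COS group comprised 4 rats injected with oil, and the CES group 4 rats replaced with estradiol (E2), given as 4 doses of 2 μg at intervals of 24 h. The sample records give 16 mg/kg of kainic acid, termination of SE after 5 h by pentobarbital, and E2 doses on both sides of SE, whereas the published methods give a lower dose of kainic acid, another drug to end SE, all injections before SE and more than 1 time of collection. Nothing in the files tells these accounts apart. Rats without SE were not analysed here, so the comparison of CES with COS asks how the subunit levels differ with hormone status among rats that all had SE, and the effect of SE itself is not part of it.

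The GABA-A receptor is a pentameric chloride channel opened by γ-aminobutyric acid, and the α subunit it contains sets much of where the receptor sits in the neuron, how sensitive it is to GABA and whether benzodiazepines act on it. In granule cells of the DG, the product of Gabra2 is concentrated at synapses including those on the axon initial segment, that of Gabra4 pairs with the δ subunit outside synapses, and that of Gabra5 also lies largely outside synapses, where such receptors carry tonic inhibition. Gabra3 belongs to an X-linked cluster and is a minor subunit in the adult hippocampus, and Gabra6 is known for its restriction to granule cells of the cerebellum.

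Each gene was measured by a single 60-base probe in a single spot, so the probes are shown here for what they detect. Probes for Gabra2 and Gabra3 lie over equivalent stretches of their transcripts, and so do those for Gabra4 and Gabra6. Capitals mark the bases that are identical between the members of these pairs when they are aligned without gaps.
Gabra2: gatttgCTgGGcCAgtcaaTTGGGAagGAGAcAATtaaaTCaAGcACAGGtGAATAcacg
Gabra3: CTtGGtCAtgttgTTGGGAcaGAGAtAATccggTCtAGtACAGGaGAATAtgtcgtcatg
Gabra4: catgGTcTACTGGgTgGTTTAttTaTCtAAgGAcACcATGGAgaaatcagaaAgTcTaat
Gabra6: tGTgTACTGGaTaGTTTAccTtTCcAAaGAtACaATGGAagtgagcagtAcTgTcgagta
Gabra5: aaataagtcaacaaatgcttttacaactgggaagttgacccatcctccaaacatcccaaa
Gabra2 and Gabra3 shared 33 of 54 aligned bases with a shift of 6 bases, and Gabra4 and Gabra6 shared 31 of 57 with a shift of 3, in both cases without a run of more than 6 identical bases. The Gabra5 probe shared between 17 and 22 bases with the other probes at its best alignments and is therefore printed without capitals. In every probe at least 1 of the forward reading frames was free of stop codons. In rn4, the build used by the files, the Gabra2 probe spans chr14:39661796-39662852 and the Gabra3 probe spans chrX:158416663-158422492 on the minus strand, stretches of 1057 and 5830 bases for 60 bases of probe, so that both probes cross at least 1 intron of the gene. Uninterrupted positions were given for Gabra4 at chr14:39122375-39122434, for Gabra5 at chr1:108844189-108844248 on the minus strand and for Gabra6 at chr10:27474072-27474131 on the minus strand.

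The 8 samples are the channels of 4 2-colour arrays on a single slide, and each array carried 2 rats of the same group, with Cy3 on replicates 1 and 3 and Cy5 on replicates 2 and 4. Spots with a foreground of 2 times the local background or more counted as valid, which held for between 70.7% and 88.9% of the non-control spots per rat. Levels are log2 values of the background-subtracted signal over the median valid spot of the same channel, and they are compared between rats for 1 probe at a time. In limma, a linear model per gene with dye as a term and array as a random block, with Benjamini-Hochberg adjustment over all genes, 1195 genes were higher and 5957 lower in CES, and the median difference over all genes was −0.25 on the log2 scale. After loess and Aquantile normalization, which align the dyes within and the intensities between arrays, that median was 0.04 and the calls were 3242 higher and 2205 lower, so each difference is also given after subtraction of the all-gene median. This setting started from signals corrected for background by another method, normexp, with an offset of 50. It thus differs from the reported fit in more than the normalization. Quantile normalization gave 3142 higher and 2182 lower, and scaling over commonly valid spots 3384 and 1783. The log2 values as deposited gave 3213 and 1927 among 20501 genes. Counts in gene lists under these settings stand against these numbers. In the reported fit the correlation between rats of 1 array was estimated at −0.01. The block thus counted the 2 rats of an array as nearly independent. The estimate was 0.24 after loess and Aquantile, 0.26 with scaling over commonly valid spots and 0.56 with normexp alone. Of 8 granule cell markers Calb1, C1ql2, Btg2 and Neurod1 were well above background in all 8 rats, Dsp in 5 of 8, and Tdo2, Lct and Prox1 in 0 of 8, the latter pair not being quantified. CES replicate 2 had the lowest level of its group for all 5 α subunit genes, and results are given with and without it.

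E2-replaced rats had higher levels of Gabra5, Gabra4 and Gabra2 than oil-injected rats, by 1.97-fold, 1.65-fold and 1.63-fold. These 3 of the 5 α subunit genes were called higher by limma at an adjusted p under 0.05 and 0 were called lower, against 5.74% of all genes called higher and 28.6% called lower. Gabra3 and Gabra6 were not called. In bulk tissue fewer cells of a type and less RNA per cell cannot be told apart, and this holds for every level given here.

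Gabra5, whose product forms extrasynaptic receptors in hippocampal neurons, differed most. Its log2 level was 2.83, 2.89, 3.29 and 2.77 in COS replicates 1 to 4, and 4.31, 3.36, 4.06 and 3.96 in CES replicates 1 to 4. The groups did not overlap and CES was higher, as for 1.55% of all genes, although CES replicate 2 stood only just above COS replicate 3. The COS mean was 2.94 ± 0.23 (SD, n = 4) and the CES mean 3.92 ± 0.40 (SD, n = 4). The log2 difference was 0.98 (standard error 0.20, 95% confidence interval 0.54 to 1.42, adjusted p = 0.00625 in limma), and 98.0% of the genes tested had a lower difference. The gap was 1.13 between the Cy3-labeled rats and 0.83 between the Cy5-labeled rats. Without CES replicate 2 it was 1.13 (adjusted p = 8.21e-04), and after subtraction of the all-gene median 1.23. The Gabra5 spot was well above background in all 8 rats, with a signal between 45.6 and 188 times its local background. Its call held on leaving out any single rat (adjusted p between 8.21e-04 and 0.0492) and was lost with normexp, another way to correct for background (adjusted p = 0.0848), and with the methods' t-test once its p-values were adjusted by Benjamini-Hochberg, a step the methods do not name (adjusted p = 0.0871). Unadjusted, that test gave Gabra5 a p of 0.00924 and put 5909 of all genes under 0.05. The methods correct it for redundant spots of a gene, of which Gabra5 has none, and also set a fold cut-off that was not applied here.

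Gabra4, the extrasynaptic partner of the δ subunit in granule cells, had a log2 level of 0.79, 0.71, 1.24 and 0.26 in COS replicates 1 to 4. In CES replicates 1 to 4 it was 1.83, 0.89, 1.70 and 1.46. The CES rats other than replicate 2 lay above every COS rat, and replicate 2 fell below COS replicate 3, so the groups overlapped by that 1 rat. The COS mean was 0.75 ± 0.40 (SD, n = 4), the CES mean 1.47 ± 0.42 (SD, n = 4), and the log2 difference was 0.72 (standard error 0.20, 95% confidence interval 0.28 to 1.16, adjusted p = 0.0205 in limma). Between the Cy3-labeled rats the gap was 0.75 and between the Cy5-labeled rats 0.69, with both CES rats above both COS rats of the same dye in each case. It was 0.84 without CES replicate 2 (adjusted p = 0.00628) and 0.98 after subtraction of the all-gene median. The Gabra4 spot was well above background in all 8 rats, at between 12.7 and 41.2 times its local background. The call was lost without COS replicate 1, 3 or 4 or CES replicate 1 (adjusted p between 0.0682 and 0.0839), with normexp (adjusted p = 0.369), with no filter on valid spots (adjusted p = 0.0809) and with the methods' t-test after adjustment (adjusted p = 0.171, unadjusted p = 0.0472).

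Gabra2, the synaptic subunit of granule and pyramidal cells, stood at 0.94, 0.43, 1.01 and 0.40 on the log2 scale in COS replicates 1 to 4. CES replicates 1 to 4 had 1.73, 0.57, 1.94 and 1.35. The overlap again came from CES replicate 2, which lay among the COS rats while the other 3 CES rats lay above all of them. A COS mean of 0.70 ± 0.33 (SD, n = 4) against a CES mean of 1.40 ± 0.60 (SD, n = 4) gave a log2 difference of 0.70 (standard error 0.20, 95% confidence interval 0.26 to 1.14, adjusted p = 0.0226 in limma). The gap was 0.86 in Cy3 and 0.54 in Cy5, where CES replicate 2 nevertheless exceeded both Cy5-labeled COS rats. Without CES replicate 2 the difference was 0.89 (adjusted p = 0.00176), and it was 0.96 above the all-gene median. The Gabra2 spot was well above background in all 8 rats, at between 13.8 and 41.6 times its local background. Its call was lost without COS replicate 1, 3 or 4 or CES replicate 1 (adjusted p between 0.0543 and 0.102), with normexp (adjusted p = 0.379), with no filter on valid spots (adjusted p = 0.0810) and with the methods' t-test (adjusted p = 0.266, unadjusted p = 0.101).

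Gabra3 was measured near the limit of the array. Its spot was valid in all 8 rats, but it was well above background in 1 of 4 COS and 2 of 4 CES rats, all of them Cy5-labeled. The log2 level was −1.69, −2.27, −1.30 and −2.76 in COS replicates 1 to 4 and −1.43, −2.38, −0.88 and −1.90 in CES replicates 1 to 4. The groups overlapped over most of their range, and within each group the Cy3-labeled rats lay above the Cy5-labeled ones. The difference of 0.36 (standard error 0.21, 95% confidence interval −0.10 to 0.82, adjusted p = 0.206 in limma) was not called, and the interval reaches the size of the Gabra2 and Gabra4 differences. It was 0.46 without CES replicate 2 (adjusted p = 0.115) and 0.61 above the all-gene median. Gabra3 was called higher in CES in 3 of the other scalings: with the log2 values as deposited it had 0.76 (adjusted p = 0.0352), with channels scaled over commonly valid spots 0.76 (adjusted p = 0.0302), and under quantile normalization 0.71 (adjusted p = 0.0300).

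Gabra6, the cerebellar subunit, was also well above background in only 1 of 4 COS and 2 of 4 CES rats, again Cy5-labeled. Its log2 level was −2.65, −2.23, −1.45 and −3.32 in COS replicates 1 to 4 and −1.89, −3.26, −1.87 and −2.77 in CES replicates 1 to 4. Every CES value lay within the range of the COS values. The difference was −0.04 (standard error 0.31, 95% confidence interval −0.72 to 0.64, adjusted p = 0.939 in limma), 0.10 without CES replicate 2 (adjusted p = 0.816) and 0.22 above the all-gene median. The sign turned with the scaling: it was 0.04 after loess and Aquantile, 0.30 after quantile normalization, 0.36 with the scaling over commonly valid spots and 0.39 with the deposited log2 table, with 0 calls among them. A list of 7 genes known from cerebellar granule and Purkinje neurons was read beside it. Of 5 quantified, 0 were higher and 2 were lower in CES, against 5.74% of all genes called higher and 28.6% called lower. After loess and Aquantile 0 were higher and 1 was lower. The summed linear level of the list ran from 3.86 to 9.18 in COS and from 1.86 to 3.80 in CES. Cbln1 made the largest part of the sum in each COS rat, and it differed most (−2.67, adjusted p = 0.00349 in limma). The part of such cells in the Gabra6 signal was not tested.

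**Figure D1:**
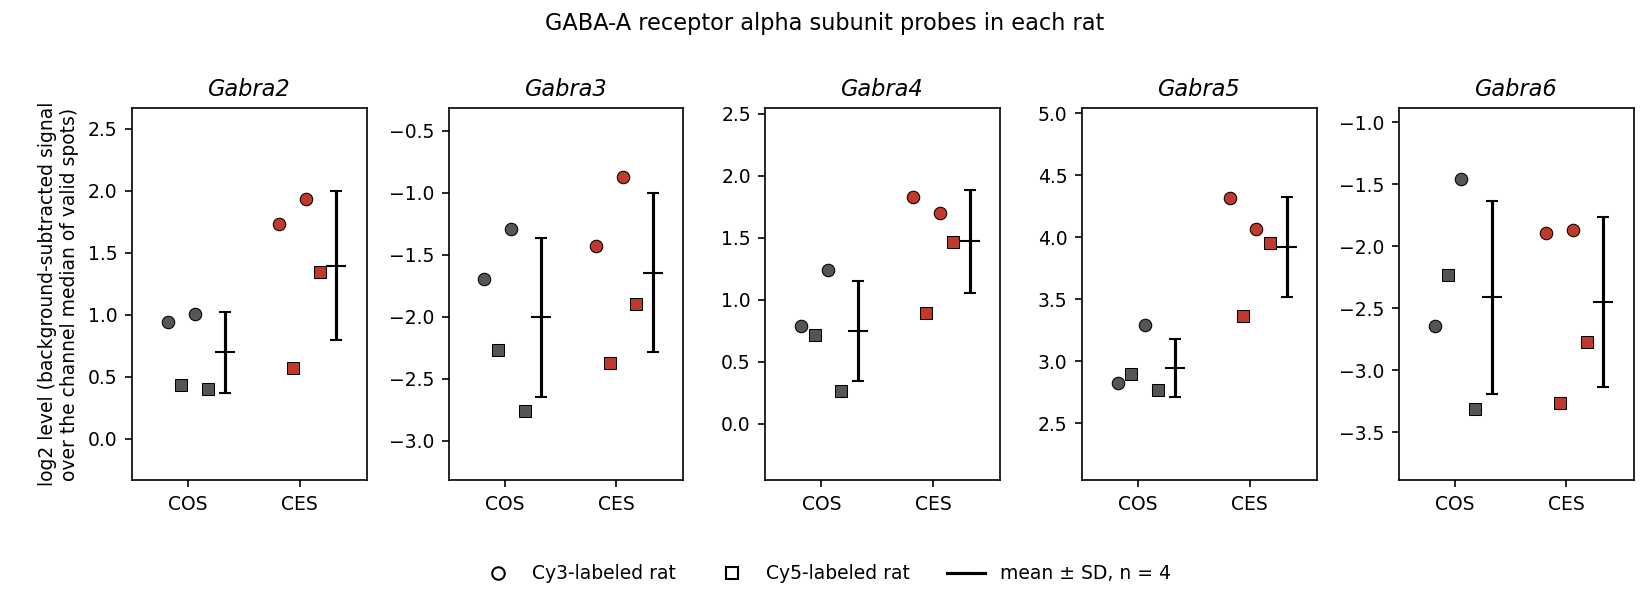
Log2 level (y axis) of each α subunit gene in the COS (grey) and CES (red) rats, with circles for Cy3-labeled and squares for Cy5-labeled rats and bars for the mean ± SD of 4 rats. Each panel has its own y axis of equal length. The CES rats lie above the COS rats for Gabra5, all but replicate 2 do so for Gabra2 and Gabra4, and the groups overlap for Gabra3 and Gabra6.

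Most extremes of the groups were held by the same rats. COS replicate 3 had the highest and COS replicate 4 the lowest level of the COS group for all 5 genes, and CES replicate 2 had the lowest of the CES group for all 5. The median of all genes varied between these rats too, at 1.20 in COS replicate 3, 0.48 in COS replicate 4 and 0.42 in CES replicate 2. Relative to the median gene of the same rat, the COS extremes were no longer held by a single rat, but CES replicate 2 remained the lowest CES rat for all 5 genes. On that relative scale Gabra2 ran from −0.35 to −0.09 in COS and from 0.15 to 1.15 in CES. Gabra4 ran from −0.27 to 0.04 in COS and from 0.47 to 1.25 in CES, and Gabra5 from 1.76 to 2.28 and from 2.94 to 3.73. The groups thus did not overlap for these 3 genes, with CES higher, as for 17.4% of all genes on that scale, and they overlapped for Gabra3 and Gabra6.

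**Figure D2:**
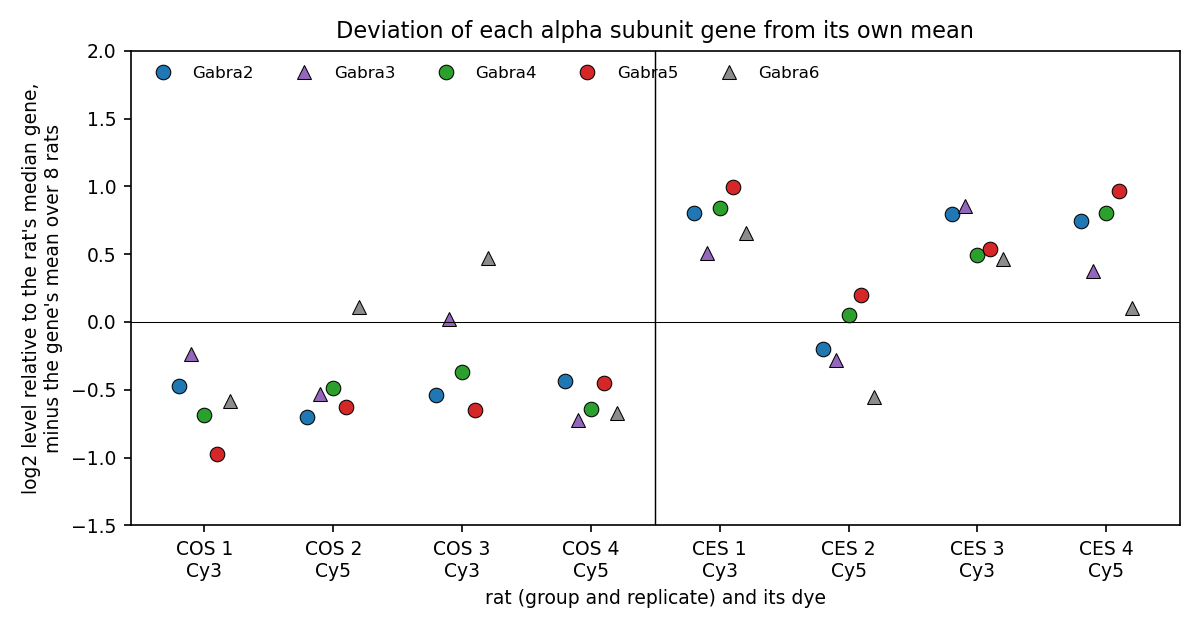
Log2 level relative to the median gene of the same rat, minus the mean of that gene over the 8 rats (y axis), for each rat (x axis, with its dye). Circles mark the genes that limma called and triangles those it did not. Gabra2, Gabra4 and Gabra5 lie below their means in the 4 COS rats, and in CES replicate 2 they lie nearest to the COS values.

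Over the 8 rats the Pearson correlation of these relative levels was 0.978 between Gabra4 and Gabra5, 0.946 between Gabra2 and Gabra4 and 0.931 between Gabra2 and Gabra5. Gabra6 correlated with the other genes at between 0.479 and 0.740. These values are descriptions over 8 points that share the group difference, the channel and the array. The difference within a rat between a pair of probes does not depend on a single factor per channel, and it was compared between the groups for all 10 pairs. The change of Gabra6 from COS to CES minus that of Gabra5 was −1.02 on the log2 scale, minus that of Gabra4 −0.76 and minus that of Gabra2 −0.74 (exact permutation test of 4 against 4 rats, two-sided, p = 0.0571 for each), values that rest on a Gabra6 spot near background in most rats. The change of Gabra5 minus that of Gabra4 was 0.26 and minus that of Gabra2 0.28 (exact permutation test, two-sided, p = 0.143 and 0.229), and that of Gabra4 minus that of Gabra2 was 0.02 (p = 0.943, exact permutation test). With these values 0 of the 10 pairs fell under 0.05, and the smallest p this design allows is 0.0286. After loess and Aquantile, which adjust by intensity and here followed normexp, 8 of the 10 pairs reached that smallest p (exact permutation tests). So did Gabra5 against Gabra3 after quantile normalization and Gabra5 against Gabra2 with the processed signal (exact permutation tests). The difference between the Gabra5 and Gabra4 levels spread by an SD of only 0.06 over the 4 CES rats, while the SD of either level was 0.40 to 0.42. In COS the SD of that difference was 0.22.

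The genes that came closest in their pattern over the 8 rats, by Pearson correlation of the relative levels, had names only in part. For Gabra5 they included Mpped1 (r = 0.996) and Rab3ip (r = 0.995). For Gabra3 they included Tcerg1l (r = 0.995), and for Gabra6 they were Tmem200a (r = 0.955), Ednra (r = 0.933) and Rspry1 (r = 0.933). The 3 closest to Gabra2 and the 3 closest to Gabra4 were transcripts without a gene symbol in the files. These values were picked from 20825 genes over 8 rats, and no test was made.

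GABA-A receptor genes lie in clusters, and the gene order in the reference annotation (GRCr8) was used to read the α subunit genes beside their neighbours. On chromosome 14 the order is Gabrb1, Gabra4, Gabra2, Gabrg1. Gabrb1, a β subunit gene, differed by 0.60 (adjusted p = 0.0187 in limma) and was called higher like Gabra4 and Gabra2, while Gabrg1, a γ subunit gene, had 0.18 and was not called (adjusted p = 0.481). The log2 level of Gabrb1 ran from 4.22 to 4.79 in COS and from 4.76 to 5.18 in CES. On chromosome 1 Gabra5 lies beside Gabrg3, which was not quantified in all rats. On chromosome X Gabra3 lies beside Gabrq, the θ subunit gene. Gabrq did not overlap between the groups, with CES higher as for 1.55% of all genes, at 2.89 to 3.29 in COS and 3.46 to 4.29 in CES. Its difference was 0.72 (adjusted p = 0.0245). On chromosome 10 Gabra6 lies beside Gabrb2, which had a difference of −0.01 (adjusted p = 0.987).

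Of 11 other GABA-A subunit genes read beside them, 6 were quantified. Gabrb1 and Gabrq were the 2 that limma called higher in CES, with 0 lower, against 5.74% of all genes called higher and 28.6% called lower. The median difference of the 6 was 0.23, beside −0.25 over all genes. Gabrd, whose product is the δ partner of the Gabra4 subunit, had a log2 difference of 0.18 (adjusted p = 0.700). The count was also 2 after loess and Aquantile, after quantile normalization, with the deposited log2 values and with the scaling over common valid spots. It was 1 with the processed signal or without CES replicate 1, and 0 with normexp, with no filter on valid spots, with the methods' t-test after adjustment and without COS replicate 1, 3 or 4.

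Among 19 genes for clustering and trafficking of the receptor, 16 were quantified, 0 were called higher and 4 were called lower in CES, near the 28.6% called lower of all genes. They were Gabarap, which links receptors to the trafficking machinery (−0.65, adjusted p = 0.0147), Ubqln1, which stabilizes receptor subunits (−0.94, adjusted p = 0.00685), Zdhhc3, which palmitoylates receptor subunits (−0.68, adjusted p = 0.0215), and Rdx, the radixin that anchors Gabra5-containing receptors outside synapses (−0.93, adjusted p = 0.0101). The median of the list was −0.09, beside −0.25 for all genes. Rdx did not overlap between the groups, with CES lower as for 19.7% of all genes: its log2 level was 4.68, 4.23, 4.30 and 3.94 in COS replicates 1 to 4 and 3.06, 3.64, 3.60 and 3.14 in CES replicates 1 to 4. After loess and Aquantile the Rdx difference was −0.59 and was not called (adjusted p = 0.0576), and the list then had 3 genes higher and 2 lower. It had 2 higher and 2 lower after quantile normalization, 2 and 1 when scaled over common valid spots and 3 and 1 with the deposited log2 values. With normexp and without COS replicate 3, 0 of the 16 were called.

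Of 7 genes for GABA synthesis, transport and breakdown 6 were quantified, and limma called 0 of them, with 2 at an unadjusted p under 0.05. Called higher were 2 with the scaling over common valid spots and with the deposited log2 values, and 1 with loess and Aquantile, quantile normalization or the processed signal. Called lower were 2 of 4 tested with spots well above background in all 8 rats, and 2 with no dye term. With the replicate number as a block, without COS replicate 4 or without CES replicate 3, 1 was called lower. Of 4 genes for the GABA-B receptor and chloride cotransporters, 2 were called higher and 0 lower, against 5.74% of all genes called higher and 28.6% called lower. They were Gabbr2 at 0.62 (adjusted p = 0.0349) and Slc12a5, which extrudes chloride and so sets the driving force of the receptor, at 0.83 (adjusted p = 0.0210). The list medians were −0.06 and 0.49. CES replicate 2 stood well below the other CES rats for Slc12a5, and without it the adjusted p of that gene was 0.00161. Without CES replicate 2, 1 gene for synthesis, transport and breakdown was called higher and 2 were called lower, and without COS replicate 1 or 3 or CES replicate 1, 0 genes of either list were called. For the GABA-B and cotransporter list, 3 were called higher after loess and Aquantile, after quantile normalization, with the deposited log2 values and with the scaling over common valid spots. The processed signal left 1. With normexp, with no filter on valid spots, with the methods' t-test after adjustment and without COS replicate 4, 0 were called.

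Genes known to act on the transcription of GABA-A subunits were read next. Of 10 genes listed 9 were quantified, 5 were called lower and 0 higher, against 28.6% of all genes called lower, and the median difference was −1.05. After loess and Aquantile, after quantile normalization and with the deposited log2 values 5 were lower and 1 higher, and with the scaling over common valid spots 4 were lower and 2 higher. Bdnf, the neurotrophin that acts on Gabra4 transcription through Egr3, differed by −1.51 (adjusted p = 0.00364), and its receptor Ntrk2 had 0.20 and was not called (adjusted p = 0.376), though it was called higher in those 4 other scalings, as after loess and Aquantile with 0.48 (adjusted p = 0.0202). Crem, which includes the repressor ICER, differed by −2.29 (adjusted p = 0.00300), Stat3 by −2.07 (adjusted p = 0.00446), Jak2 by −1.14 (adjusted p = 0.00818) and Creb1 by −1.05 (adjusted p = 0.00701). Egr3, well above background in 1 of 4 COS and 1 of 4 CES rats, had −0.62 and was not called (adjusted p = 0.0650). Crem shows the pattern of the group, with 3.27, 3.67, 3.45 and 3.18 on the log2 scale in COS replicates 1 to 4 and 0.75, 2.02, 1.05 and 0.60 in CES replicates 1 to 4. CES replicate 2 stood nearest to COS here, as it did for Gabra2, Gabra4 and Gabra5. Of these 5 genes Bdnf and Crem were also called without COS replicate 3, Crem and Stat3 with normexp, and 0 with the methods' t-test after adjustment.

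**Figure D3:**
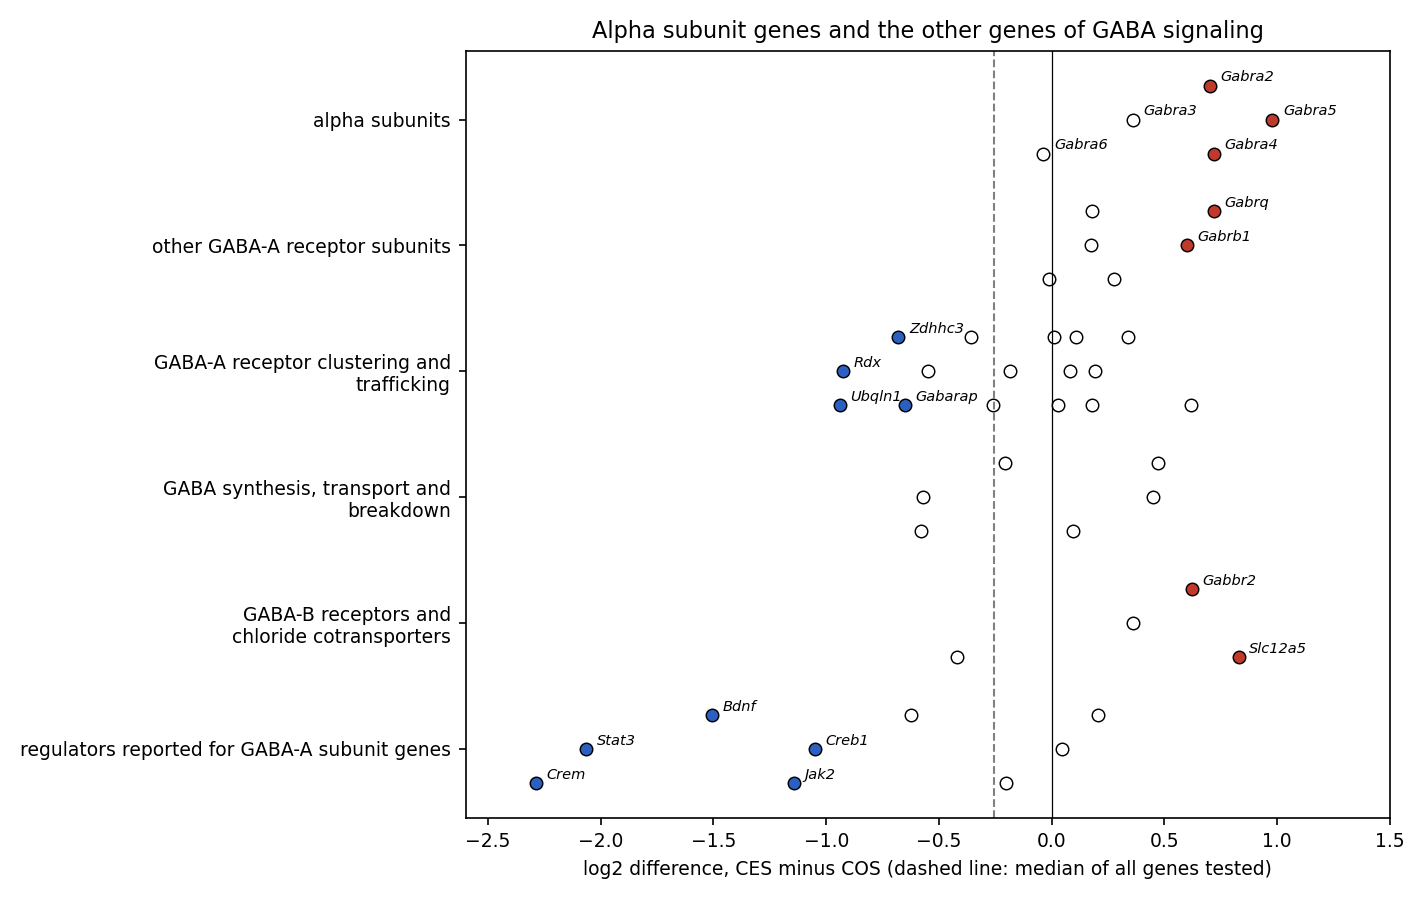
Log2 difference, CES minus COS (x axis), of every quantified gene in the α subunit group and in the lists of GABA genes (y axis, spread vertically for legibility). Red and blue points were called higher and lower by limma and white points were not called. The called α subunit genes lie near 0.70 to 0.98, and the called regulators lie between −2.29 and −1.05.

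Promoters of Gabra3, Gabra4, Gabra5 and Gabra6, from 250 bases before to 50 bases after the annotated start (RefSeq, GRCr8), were searched on both strands for the letters GCGNGGGCG (bound by Egr factors), TGACGTCA (bound by Creb1 and Crem), TGANTCA (AP-1) and the estrogen response element, GGTCA and TGACC with 3 bases between them. Among all 33469 promoters these were present in 4.98%, 1.83%, 7.33% and 0.0269%. Gabra4 held 2 matches to the first, beginning 53 and 37 bases before the start. They did not overlap one another or another of the motifs searched. Both have the same letters and are followed by the same bases, so they are copies in a tandem repeat. The remaining searches gave 0 matches in the 4 promoters. The 250 bases before the start of Gabra4 (GRCr8, chr14:36944497-36944746, plus strand) are shown because Gabra4 is the gene with the matches, which stand in capitals.
Gabra4 promoter: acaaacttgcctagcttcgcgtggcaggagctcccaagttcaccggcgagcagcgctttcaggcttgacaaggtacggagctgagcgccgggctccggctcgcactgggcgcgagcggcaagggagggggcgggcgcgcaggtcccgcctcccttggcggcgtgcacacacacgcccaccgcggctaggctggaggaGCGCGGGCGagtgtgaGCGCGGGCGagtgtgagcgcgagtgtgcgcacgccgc
A match of letters is a description of this window, and binding was not measured. The promoters of Gabra4 and Gabra5 had a GC content of 70.7% and 76.3%, those of Gabra3 and Gabra6 39.3% and 42.3%, and the median over all promoters was 51.7%.

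Markers of the cell types in the tissue were read beside the α subunit genes, and their calls stand against 5.74% of all genes called higher and 28.6% called lower. Microglial and macrophage markers were called lower for 4 of 7 genes and higher for 1, with a summed linear level between 57.6 and 100.1 in COS and between 30.9 and 45.9 in CES. Interneuron markers were lower for 2 of 7 quantified and higher for 0, and their sum ran from 201 to 352 in COS and from 79.4 to 163 in CES. The somatostatin gene Sst was among the lower ones (−1.61, adjusted p = 0.00518 in limma). Sst had the highest level of the list, with log2 means of 7.54 in COS and 5.94 in CES, so the sum mostly follows this gene. Differences of Pvalb (0.51) and Dlx1 (0.22) lay above 0 and those of the rest below, and neither Pvalb nor Dlx1 was called. Granule cell markers were lower for 4 of 6 and higher for 1, with sums of 22.5 to 43.3 and 22.2 to 26.4. The lower ones were Btg2, C1ql2, Dsp and Tdo2, and the higher one was Neurod1 (1.16, adjusted p = 0.00468 in limma). Tdo2 was well above background in 0 of 4 COS and 0 of 4 CES rats, and Dsp in 3 and 2. After loess and Aquantile only Btg2 of the lower ones stayed called (−1.75, adjusted p = 0.0124 in limma). Neurod1 also stayed called (1.39, adjusted p = 0.00976 in limma). Markers of CA pyramidal neurons, which also carry Gabra2 and Gabra5, were higher for 3 and lower for 2 of 8 names. Their sums were 33.8 to 44.5 and 34.8 to 64.3. Pvrl3 and Nectin3, which were not called, are 2 symbols of 1 gene. Of those called, Fibcd1 was well above background in 0 of 4 COS and 2 of 4 CES rats, and Spink8 in 3 and 1. Astrocyte markers were higher for 2 and lower for 0 of 7, with sums of 168 to 190 and 150 to 232, and endothelial markers were lower for 3 of 4. Those shares do not apply after loess and Aquantile, where 2205 of all 20825 genes were called lower and 3242 higher. The marker calls were then 3 lower and 1 higher for microglia and macrophages, 2 lower and 1 higher for interneurons, 1 lower and 1 higher for granule cells, 0 lower and 3 higher for CA pyramidal neurons, 0 lower and 1 higher for astrocytes and 1 lower and 0 higher for endothelial cells. Choroid plexus markers gave 0 calls but spread widely, with sums of 12.9 to 612 in COS and 15.7 to 193 in CES. Of 4 quantified hilar mossy cell markers and 6 oligodendrocyte markers, limma called 0. After loess and Aquantile 1 mossy cell marker was called higher. The part of these cell types in the α subunit differences was not tested.

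**Figure D4:**
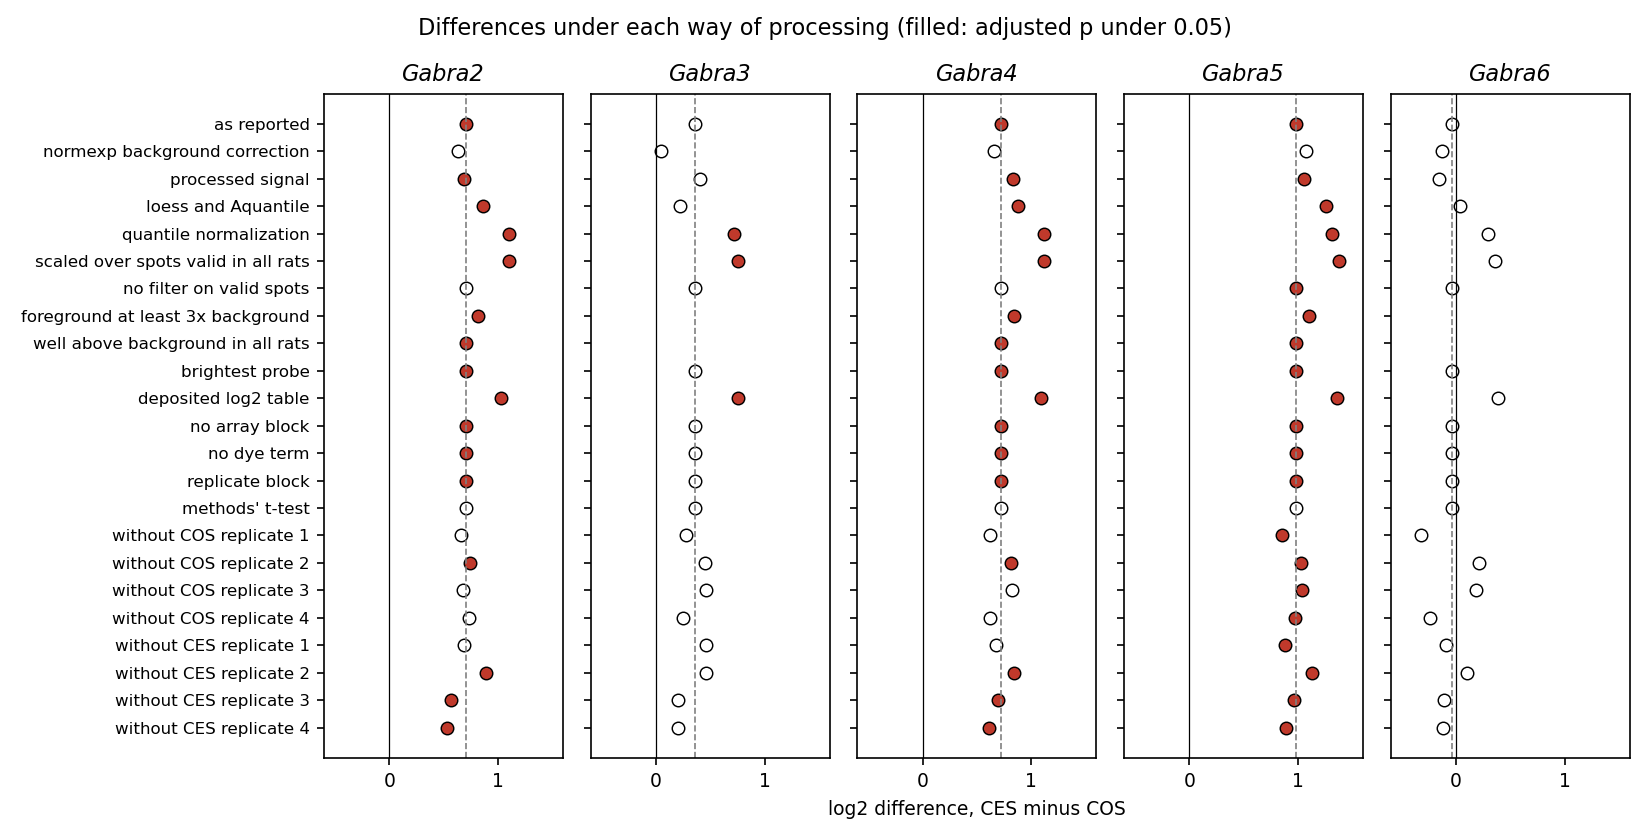
Log2 difference, CES minus COS (x axis), of each α subunit gene under each way of processing or with 1 rat left out (y axis), filled where the adjusted p was under 0.05. The dashed line is the value as reported. Gabra2, Gabra4 and Gabra5 stay above 0 throughout, with Gabra5 losing its call in the fewest settings of these 3, and Gabra6 falls on either side of 0.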

How the data were processed

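Cy3- or Cy5-labeled total RNA of the rats was hybridized to Agilent 2-colour arrays. The files the authors deposited hold spot and local background intensity per channel (Agilent Feature Extraction 10.7.3.1, per the submitters' processing notes), and a table of log2 values, each the log2 of the median signal minus background relative to the column median. The 1593 spots with an outlier flag were left out. Mean signals less the background medians were scaled to the channel median over valid spots, averaged per gene over spots valid in all 8 rats and log2-transformed. Probes were named by RefSeq accession where it matched (17503 of 41012) and otherwise as in the files.

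CES and COS were compared in limma 3.58.1 (R 4.3.3, statmod 1.5.0), with dye as a fixed term and array as a random block, two-sided, threshold 0.05. On simulated data of this layout with 20825 genes, 90% of log2 changes of 2 and 41% of changes of 1 were recovered, with 10 false among 141 calls. Only 200 genes were changed there, evenly in both directions, without an array effect and without a shift of the all-gene median. These rates therefore cannot show how many calls in the rats come from arrays or scaling. Repeated spots of a probe had a median SD of 0.19 within a channel. Each array held rats of 1 group, so array and group cannot be fully told apart. The number of arrays limits the precision, and the labels do not say more of the replicates than that each is a rat.

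The members and lists were chosen with earlier results of these data known. Named genes were the 5 members, list genes that limma called or that lie in a cluster with a member, and the 3 nearest genes by correlation. Granule cell markers, Gabrd, Ntrk2, Egr3, Pvalb, Dlx1, Pvrl3 and Nectin3 were named after their values were seen. Gene order came from the RefSeq annotation of GRCr8. Summaries used Python 3.11.15 with scipy 1.17.1. Some genes of the lists are not reported here.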

Additional observations from a re-analysis of the deposited data

Results flagged for a closer look

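In 5 of 56 groups of 4 rats tested, 1 rat stood apart from the other 3 by Dixon's criterion, which chance alone passes in about 1 of 20 independent groups. The groups are not independent, since pair differences share probes and rats, so the 5 flags cannot be weighed against that rate. CES replicate 3 stood apart in 3 of the differences within a rat between pairs of α subunit probes: Gabra4 minus Gabra3 was 2.58, with 3.26 to 3.36 in the other CES rats, Gabra5 minus Gabra3 was 4.94, with 5.74 to 5.85, and Gabra5 minus Gabra4 was 2.37, with 2.47 to 2.49. For Slc12a5, CES replicate 2 had 4.63, with 5.64 to 5.83 in the other CES rats. For Gabarap, CES replicate 3 had 6.19, with 5.70 to 5.78 in the others.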

How the results depend on the processing

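Of 22 alternatives for Gabra2, Gabra4 and Gabra5, 15 gave another difference between CES and COS than the reported one, and of 20 for Gabra3, 14 did. The difference was above 0 in each of these, and the calls over all alternatives numbered 15, 15, 20 and 3, in that order. With normexp the calls over all genes fell to 631 and those of α subunit genes to 0, with Gabra2 at 0.63, Gabra4 at 0.65 and Gabra5 at 1.08. With no filter on valid spots the calls were 3223 and 1, with Gabra2 at 0.70 and Gabra4 at 0.72 no longer called, and with the foreground limit raised to 3 times background 4033 genes were called. After Benjamini-Hochberg adjustment, which the methods do not name, the methods' t-test gave 0 calls over all genes and 0 α subunit genes, with 5909 genes at an unadjusted p under 0.05 against 9425 in limma, and left Gabra2 at 0.70, Gabra4 at 0.72 and Gabra5 at 0.98 uncalled, with an unadjusted p under 0.05 in that test for Gabra4 and Gabra5. Gabra3 was called at 0.71 with quantile normalization, at 0.76 when scaled over common valid spots and at 0.76 with the deposited log2 table, and Gabra6 turned to 0.0377 with loess and Aquantile and to 0.30, 0.36 and 0.39 with those 3 scalings. The cause of these changes was not tested.

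Leaving out each rat in turn gave 1427 to 8682 calls over all genes, the lowest without COS replicate 3, and 1 to 3 α subunit genes. The differences ran from 0.53 to 0.89 for Gabra2, 0.20 to 0.46 for Gabra3, 0.61 to 0.84 for Gabra4, 0.86 to 1.13 for Gabra5 and −0.32 to 0.21 for Gabra6. The difference in change between Gabra4 and Gabra2 ran from −0.0622 to 0.12 on leaving out a rat.

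With the replicate number as a block, 7719 genes and 3 α subunit genes were called, and the differences were unchanged at 0.70, 0.36, 0.72, 0.98 and −0.04. Same-numbered rats share their dye, and their deviations from the group means correlated at 0.21 to 0.35, and at −0.28 to 0.09 once the dye was removed, so the numbers were not taken to pair the rats, and the block changed no call of an α subunit gene. With 1 spot per gene, single probes and the brightest probe gave no separate values. Gabra3 and Gabra6 had no values with the stricter foreground or with spots well above background in all rats.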
